A study of Mus musculus with 6 samples.

Results

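The 10 genes described here encode immunoglobulin-superfamily cell adhesion molecules of 5 families: the MDGA proteins (Mdga1, Mdga2), the NCAM proteins (Ncam1, Ncam2), L1-family proteins (L1cam, Nrcam), Kirrel proteins (Kirrel, Kirrel3) and DSCAM proteins (Dscam, Dscaml1). They were chosen by gene symbol, with earlier results of these data known, and all 10 were among the 15703 genes listed in the deposited expression table. RNA was sequenced from the neocortex of newborn C57BL/6 mice (postnatal day 0). The Tcf4 conditional knockout group (cKO, 3 libraries) had the genotype Tcf4 f/f; Emx1Cre/+, and the wild-type group (WT, 3 libraries) was labelled WT without further alleles. Emx1 drives the Cre recombinase in the dorsal progenitors that give rise to cortical excitatory neurons and glia, so interneurons, microglia and vessel cells in the same tissue are outside its reach. The labels do not say how many animals went into a library, and p-values measure the spread between these libraries.

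Proteins of this superfamily span the membrane or are anchored to it by a lipid, and bind the same protein or a different partner on a neighbouring cell. MDGA proteins carry a glycosylphosphatidylinositol anchor and bind neuroligins, which keeps these from meeting neurexins at the synapse, and Mdga1 is known in mouse for its expression in upper-layer cortical neurons and its part in their migration. NCAM can carry polysialic acid, a sugar chain that loosens adhesion, and L1-family proteins link cell contacts to the ankyrin and spectrin skeleton of growing axons. Kirrel proteins, relatives of the kidney slit-diaphragm protein nephrin, and DSCAM proteins act in the sorting and spacing of neurites and in synapse choice.

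Of the 10 genes, 4 rose in cKO neocortex (Kirrel, Ncam2, Mdga2, Dscaml1), 2 fell (Mdga1, Nrcam) and 4 did not pass the test (Ncam1, L1cam, Kirrel3, Dscam). Mdga1 fell 2.46-fold and Kirrel rose 1.98-fold. The other called changes were between 1.30-fold and 1.52-fold. The test was limma on log2(FPKM + 1), where FPKM counts fragments for each kilobase of exon, scaled by the depth of the library, with Benjamini-Hochberg adjustment over the 15703 genes and a threshold of 0.05, and adjusted p-values below come from it unless another fit is named. By that rule 7.22% of all genes were higher and 8.59% lower in cKO, 15.8% in either direction. Folds are ratios of the group means in FPKM, and log2 changes are of FPKM + 1, so a fold and its log2 change differ. In the 4 genes that rose every cKO library lay above every WT library, in the 2 that fell every cKO library lay below, and in the other 4 the groups overlapped. Over all genes, 18.5% had every cKO library above every WT library and 18.7% had every cKO library below, 37.3% in all. The median absolute log2 change was 0.37 over the 10 genes and 0.13 over all genes, and the signed medians were 0.18 and 0.0017. Each of the 10 averaged at least 1 FPKM, as did 13071 of the 15703 genes, and log2(FPKM + 1) understates changes at low levels. Because the 10 were chosen with earlier results known, their counts and medians beside those of all genes are a description and not a test. Since tissue was sequenced in bulk, fewer cells of a type and less RNA per cell cannot be told apart.

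**Figure D1:**
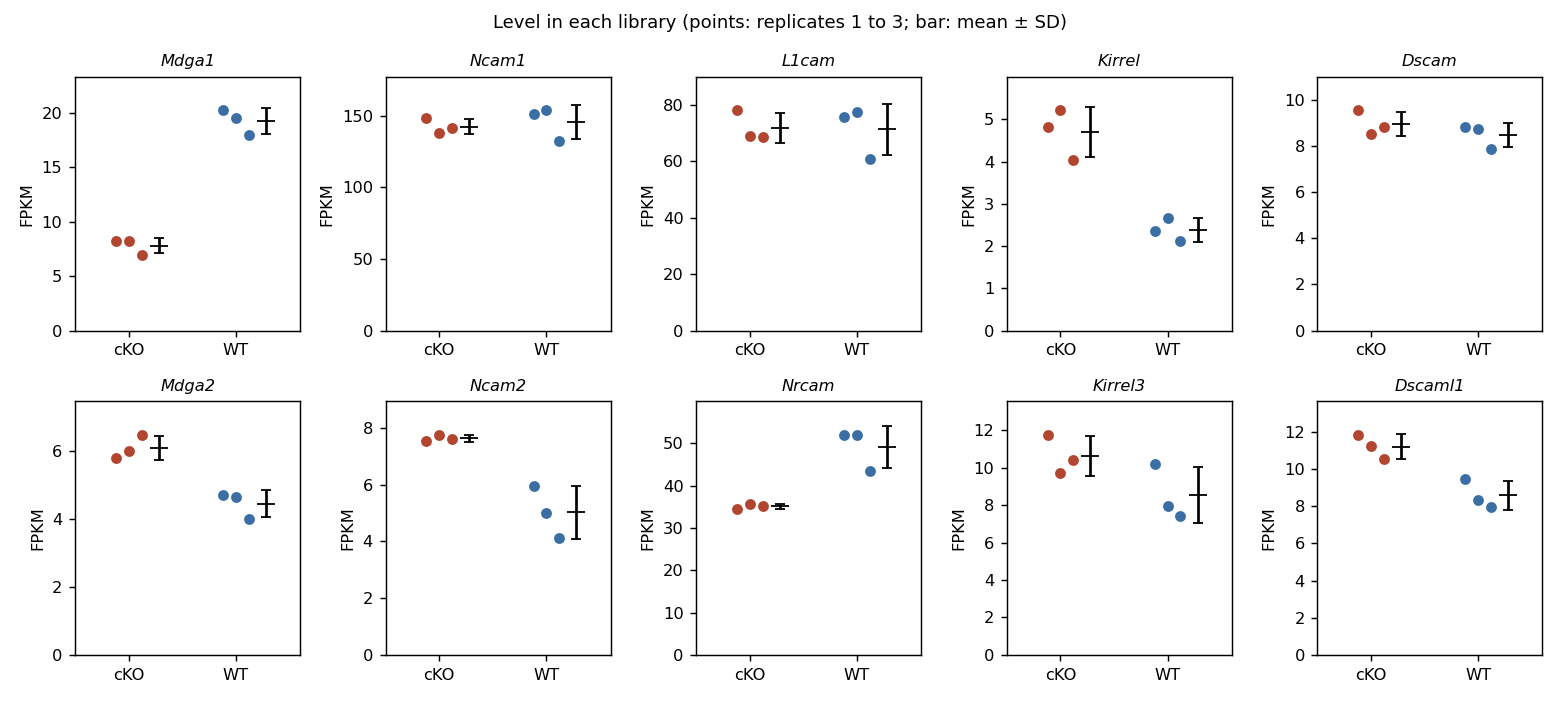
Expression level (FPKM, linear axis starting at 0) of each gene in the 3 cKO (left) and 3 WT (right) libraries, with the mean ± SD beside the points. Mdga1 and Nrcam were lower in every cKO library, and Mdga2, Ncam2, Kirrel and Dscaml1 were higher in every cKO library.

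The labels and libraries were checked first. Tcf4, the targeted gene, lay between 55.3 and 60.6 FPKM in cKO libraries and between 71.2 and 75.6 FPKM in WT libraries, a value that counts all exons and all cells of the tissue. Of 6 neocortex markers 2 fell and 4 did not pass. Without WT 2, WT 3 or cKO 1, 1 of the 6 was also called higher. Without WT 1, cKO 2 or cKO 3 none was called. Emx1, which fell, was at 9.81 ± 0.638 FPKM in cKO and 12.5 ± 0.772 FPKM in WT (limma adjusted p = 0.0175). Its call was lost in 3 of the 6 fits that left a library out. Only the cKO genotype is labelled with Emx1Cre, so Emx1 cannot be read as a plain check of the tissue. Neurod6, a factor of excitatory neurons, was at 326 to 369 FPKM in cKO and 272 to 315 FPKM in WT. It did not pass (limma adjusted p = 0.0507). Of 5 markers of other brain regions only Lhx9 was listed, at no more than 0.338 FPKM in any library. Each group held 1 library with almost no Xist, cKO 3 at 0.407 FPKM and WT 1 at 0.433 FPKM, and 2 libraries at 127 FPKM or above. Library sizes recovered from the values of low genes, as the divisors behind FPKM, were 23.2 to 26.1 M (1e6 reads). Reads recovered with them summed to 25.3 to 28.8 M, so these sizes are not exact counts of reads. Astrocyte markers moved with genotype, with 6 of 6 listed lower and a summed level of 49.6 to 64.7 FPKM in cKO, against 86.7 to 111 FPKM in WT. Of 8 microglia markers 4 fell (summed level 13.7 to 20.1 FPKM in cKO and 23.5 to 27.4 FPKM in WT). Of 10 interneuron markers 4 fell (191 to 206 FPKM in cKO and 190 to 216 FPKM in WT). The median log2 change of the 10 was −0.22, and the most abundant of them, which weighed most in the sum, did not pass. Of 10 deep-layer neuron markers 5 fell and 1 rose (224 to 236 FPKM in cKO and 279 to 301 FPKM in WT), and of 11 upper-layer markers 5 fell and 1 rose (308 to 313 FPKM in cKO and 301 to 336 FPKM in WT). Of 6 subplate markers 5 rose and 1 fell (40.6 to 50.9 FPKM in cKO and 40.8 to 53.1 FPKM in WT). Their median log2 change was 0.81, and the 1 that fell was the most abundant of the 6 and weighed most in the sum. Of 4 listed intermediate progenitor markers 3 rose (37.4 to 53.6 FPKM in cKO and 37.0 to 42.2 FPKM in WT). Here the median log2 change was 0.57, and the most abundant of the 4 did not pass. Of 8 radial glia markers 1 fell (366 to 468 FPKM in cKO and 573 to 587 FPKM in WT). The other 7 did not pass, and the median log2 change of the 8 was 0.018. The 1 that fell was the most abundant of the 8 and weighed most in the sum. Also lower were 2 of 5 oligodendrocyte-lineage, 1 of 6 Cajal-Retzius and 1 of 4 red blood cell markers. No listed endothelial (6), mural (4), meningeal fibroblast (4) or choroid plexus (1) marker passed. Leaving out 1 library changed several of these counts. The astrocyte markers called lower were 4 without WT 1 or cKO 1, 5 without WT 2 or cKO 2 and 6 in the other fits. The microglia markers called lower were 1 without WT 1, 2 without WT 3 or cKO 1 and 3 or 4 in the other fits, and the interneuron markers called lower were 1 without WT 1 or cKO 1, 2 without WT 3 or cKO 2 and 3 or 4 in the other fits. Of the 6 fits that left a library out, only that without WT 2 called a deep-layer marker higher, and it called 2 upper-layer and 2 endothelial markers higher. Of the oligodendrocyte-lineage markers 1 was called without WT 1 or cKO 1, and the red blood cell marker was not called without WT 1, cKO 1 or cKO 3. The part of these cell populations in the changes below was not tested.

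WT 3 had the lowest value of the WT libraries in all 10 genes. Over all genes it was the lowest WT library in 38.5%, and over the 4109 genes with an exon length of at least 6454 bases, that of the shortest of the 10, in 56.6%. The exon lengths of the 10 genes ran up to 18336 bases, against a median of 4229 bases over all genes. Among those 4109 long genes, 10.3% were called higher and 6.35% lower, with a median log2 change of 0.05. The 4 increases and 2 decreases were also called without WT 3, and with the trend over exon length removed from each library.

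The 250 bases before the annotated start of transcription are shown for Nrcam, Mdga2 and Ncam2, the called genes whose window lay outside the exons of the GENCODE annotation. Tcf4 belongs to the E proteins, which bind the letters CANNTG (an E-box), and matches are in capitals. Sequences are from RefSeq on GRCm38.p6, 5′ to 3′ on the strand of the gene.
Nrcam, chr12:44328635-44328884, plus strand: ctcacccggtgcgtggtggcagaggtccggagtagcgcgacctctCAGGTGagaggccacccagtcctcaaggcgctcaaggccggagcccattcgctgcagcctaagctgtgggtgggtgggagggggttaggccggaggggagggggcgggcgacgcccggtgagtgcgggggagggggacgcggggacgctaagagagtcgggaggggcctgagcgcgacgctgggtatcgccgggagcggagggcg
Mdga2, chr12:67222550-67222799, minus strand: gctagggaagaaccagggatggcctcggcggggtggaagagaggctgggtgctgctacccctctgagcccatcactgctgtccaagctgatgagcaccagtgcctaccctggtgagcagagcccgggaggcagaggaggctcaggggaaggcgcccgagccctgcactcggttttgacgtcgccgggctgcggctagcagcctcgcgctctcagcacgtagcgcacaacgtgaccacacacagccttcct
Ncam2, chr16:81200447-81200696, plus strand: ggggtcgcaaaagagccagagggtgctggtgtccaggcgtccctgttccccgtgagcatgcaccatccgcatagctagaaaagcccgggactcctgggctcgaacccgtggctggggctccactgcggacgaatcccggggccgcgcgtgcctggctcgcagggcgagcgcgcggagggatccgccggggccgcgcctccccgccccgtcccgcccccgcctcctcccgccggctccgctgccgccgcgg
The Nrcam window held 1 match, CAGGTG, starting 205 bases before the start. The windows of Mdga2 and Ncam2 held none, nor did those of Mdga1, Kirrel and Dscam. L1cam had 2 RefSeq starts, with 1 match in the window of the start further downstream and 2 in that of the other. These overlap, and CAGATG is in each. Of 32851 promoter entries, 66.2% held CANNTG in the same window on either strand (the letters are their own reverse complement), 17.2% held CACCTG or CAGGTG, 14.4% held CATCTG or CAGATG and 13% held CAGCTG, each being a form of CANNTG. The windows of the 7 genes with an entry were 63.2% to 75.2% G and C, against a median of 52.4% over all entries. The Mdga1 window lay wholly inside exons of GENCODE transcripts that start upstream, and 210 bases of the Kirrel window did so. Ncam1, Kirrel3 and Dscaml1 had no entry among those used. A match describes the letters only, and a window without a match says nothing of binding elsewhere.

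The MDGA pair moved in opposite directions. Mdga1 (ENSMUSG00000043557, chromosome 17, 29827949 to 29970087, minus strand, mm10) was at 8.27, 8.20 and 6.99 FPKM in cKO 1, 2 and 3 and at 20.3, 19.5 and 17.9 FPKM in WT 1, 2 and 3. Every cKO library was below every WT library. The mean was 7.82 ± 0.718 FPKM in cKO and 19.2 ± 1.19 FPKM in WT (SD, n = 3 each), a log2 change of −1.20 (SE 0.0805, 95% interval −1.38 to −1.02, limma adjusted p = 1.35e-05). It was the 51st largest decrease over all genes on the log2(FPKM + 1) scale, and its adjusted p stayed at or under 0.000199 without any single library.

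Mdga2 (ENSMUSG00000034912, chromosome 12, 66466060 to 67222549, minus strand) was at 5.78, 6.00 and 6.47 FPKM in cKO and 4.70, 4.64 and 3.98 FPKM in WT. The cKO libraries were all above the WT libraries, by a gap smaller than that of Mdga1. The mean was 6.08 ± 0.355 FPKM in cKO and 4.44 ± 0.396 FPKM in WT, 1.37-fold higher (log2 change 0.38, SE 0.0833, limma adjusted p = 0.0130). Without cKO 3 its adjusted p was 0.0498, just inside the threshold. A processed pseudogene on the opposite strand shares 9.0% of its exon length, and reads from it cannot be told apart where strand was not counted.

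Because FPKM is per length, the levels of relatives can be set against each other within a library. The ratio of Mdga1 to Mdga2 was 1.43, 1.37 and 1.08 in cKO and 4.31, 4.21 and 4.50 in WT. Mdga1 was therefore the higher of the pair in FPKM in every library, by a smaller margin in each cKO library. The exon lengths were 9515 bases for Mdga1 and 18336 bases for Mdga2. The order depends on these lengths, most of all in cKO 3, where the ratio was 1.08. The summed level of the pair was 14.0, 14.2 and 13.5 FPKM in cKO and 25.0, 24.2 and 21.9 FPKM in WT, so the increase in Mdga2 was smaller in FPKM than the decrease in Mdga1. These ratios and sums are given without a test.

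**Figure D2:**
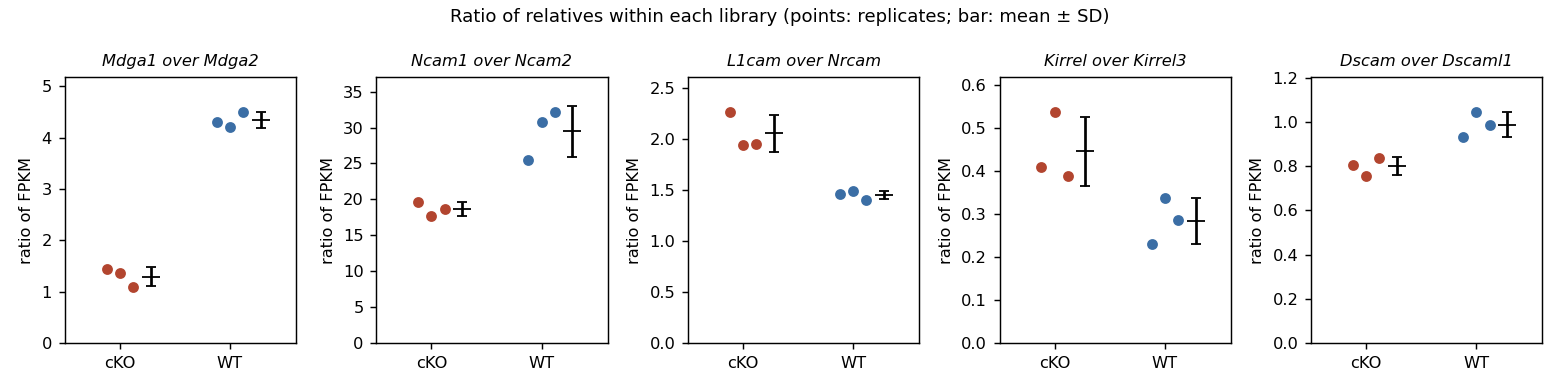
Ratio of the FPKM levels of 2 relatives within each library (linear axis starting at 0), cKO left and WT right, with the mean ± SD. The groups did not overlap in any of the 5 ratios, and Mdga1 over Mdga2 averaged 1.29 in cKO and 4.34 in WT. Each pair held a gene whose own groups did not overlap, so the ratios partly restate those changes. The share over other gene pairs was not computed.

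In the NCAM pair, the abundant gene did not pass and the scarce gene rose. Ncam1 (ENSMUSG00000039542, chromosome 9, 49502136 to 49798925, minus strand) was the highest of the 10 genes, at 148, 138 and 142 FPKM in cKO and 151, 154 and 132 FPKM in WT. The groups overlapped, and the log2 change was −0.03 with a 95% interval of −0.19 to 0.13 (limma adjusted p = 0.797). An antisense gene, also listed, shares 4.81% of its exon length.

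Ncam2 (ENSMUSG00000022762, chromosome 16, 81200697 to 81626828, plus strand), also known as OCAM from its expression in olfactory neurons, was at 7.53, 7.76 and 7.60 FPKM in cKO and 5.95, 5.0 and 4.11 FPKM in WT. The cKO libraries were nearly level, while the WT libraries were spread more widely, all below them. The mean was 7.63 ± 0.121 FPKM in cKO and 5.02 ± 0.920 FPKM in WT, 1.52-fold higher (log2 change 0.53, SE 0.105, limma adjusted p = 0.00833), and its adjusted p was at most 0.0338 without any single library. Ncam1 exceeded Ncam2 by a ratio of 19.7, 17.7 and 18.6 in cKO and 25.5, 30.8 and 32.2 in WT.

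In the L1 family, Nrcam fell and L1cam did not pass. Nrcam (ENSMUSG00000020598, chromosome 12, 44328885 to 44601964, plus strand), which gathers with ankyrin at axon initial segments and nodes, was at 34.5, 35.6 and 35.1 FPKM in cKO and 52.0, 52.1 and 43.4 FPKM in WT. The 3 cKO libraries were nearly level and all below WT 3, the lowest WT library. The mean was 35.1 ± 0.556 FPKM in cKO and 49.1 ± 5.0 FPKM in WT, 1.40-fold lower (log2 change −0.47, SE 0.0774, limma adjusted p = 0.00337), and its adjusted p was at most 0.0197 without any single library.

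L1cam (ENSMUSG00000031391, chromosome X, 73853778 to 73896105, minus strand), an axon growth and fasciculation protein, was at 78.1, 69.1 and 68.6 FPKM in cKO and 75.7, 77.3 and 60.9 FPKM in WT. The groups overlapped, with a log2 change of 0.02 and a 95% interval of −0.19 to 0.23 (limma adjusted p = 0.917). The gene is X-linked, and the libraries nearly without Xist, cKO 3 and WT 1, did not stand apart, cKO 3 being close to cKO 2 and WT 1 between WT 2 and WT 3. The sign of its change turned to −0.09 without WT 3, −0.04 without cKO 1 and −0.03 with the exon length trend removed. The ratio of L1cam to Nrcam was 2.26, 1.94 and 1.95 in cKO and 1.45, 1.49 and 1.40 in WT.

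Kirrel, written Kirrel1 in some annotations, had the largest increase of the 10 genes from the lowest level. Kirrel (ENSMUSG00000041734, chromosome 3, 87078593 to 87174747, minus strand) was at 4.82, 5.21 and 4.05 FPKM in cKO and 2.35, 2.67 and 2.11 FPKM in WT. The lowest cKO library was above the highest WT library by more than 1 FPKM. The mean was 4.69 ± 0.594 FPKM in cKO and 2.38 ± 0.281 FPKM in WT, 1.98-fold higher (log2 change 0.75, SE 0.103, 95% interval 0.52 to 0.98, limma adjusted p = 0.00123). It was the 83rd largest increase on the log2(FPKM + 1) scale, which understates changes at this level. With a pseudocount of 0.1 the log2 change was 0.95. The recovered reads behind each value were 369 to 945 per library, the fewest of the 10 genes, and the adjusted p was at most 0.00928 without any single library.

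Kirrel3 (ENSMUSG00000032036, chromosome 9, 34485894 to 35036716, plus strand), known in mouse for hippocampal synapses and for the sorting of olfactory axons, was at 11.8, 9.70 and 10.4 FPKM in cKO and 10.2, 7.94 and 7.39 FPKM in WT. Only WT 1 overlapped the cKO libraries. The log2 change was 0.30 with a 95% interval, not adjusted for the number of genes, of 0.05 to 0.54 (limma adjusted p = 0.0993). The gene passed without WT 1 (limma adjusted p = 0.0294) and with limma voom on recovered reads (adjusted p = 0.0413), so its call depended on the library and on the method. The ratio of Kirrel to Kirrel3 was 0.410, 0.537 and 0.389 in cKO and 0.230, 0.336 and 0.285 in WT.

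In the DSCAM pair, Dscaml1 rose and Dscam did not pass. Dscaml1 (ENSMUSG00000032087, chromosome 9, 45426628 to 45753712, plus strand), known in the mouse retina for the spacing of neurons of a type, was at 11.9, 11.2 and 10.5 FPKM in cKO and 9.46, 8.36 and 7.95 FPKM in WT. The cKO libraries were all higher. The mean was 11.2 ± 0.672 FPKM in cKO and 8.59 ± 0.784 FPKM in WT, 1.30-fold higher (log2 change 0.35, SE 0.0802, limma adjusted p = 0.0166). This was the only one of the 6 calls that was lost when a library was left out, with an adjusted p of 0.0718 without cKO 1 and 0.0612 without cKO 2.

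Dscam (ENSMUSG00000050272, chromosome 16, 96590840 to 97170752, minus strand), the founding member of the family, was at 9.54, 8.51 and 8.80 FPKM in cKO and 8.81, 8.74 and 7.85 FPKM in WT. The groups overlapped, with a log2 change of 0.07 and a 95% interval of −0.09 to 0.24 (limma adjusted p = 0.538). The ratio of Dscam to Dscaml1 was 0.804, 0.757 and 0.837 in cKO and 0.931, 1.05 and 0.988 in WT.

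**Figure D3:**
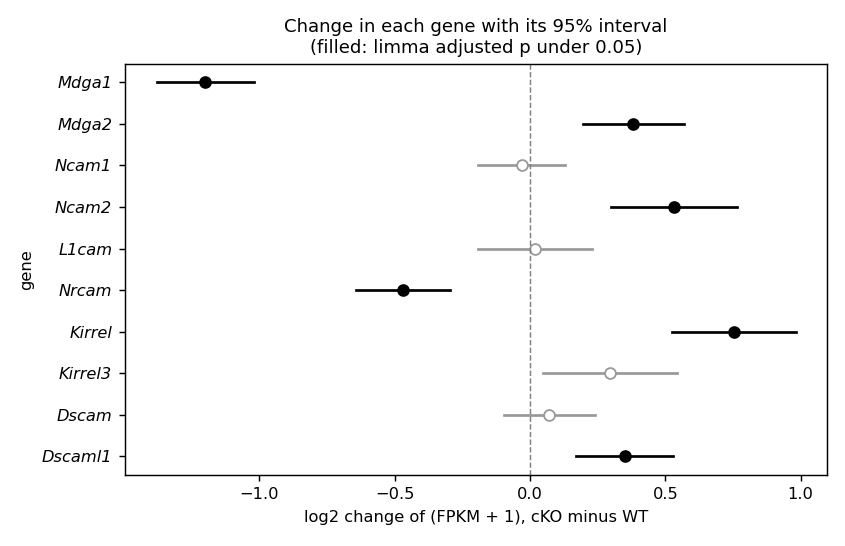
Change of each gene as log2(FPKM + 1), cKO minus WT, with limma's 95% interval (not adjusted for the number of genes). Filled points passed an adjusted p of 0.05, with Mdga1 at −1.20 and Kirrel at 0.75 as the extremes.

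The order of the levels differed between the groups mainly through Mdga1. Ncam1, L1cam and Nrcam were the 3 highest in cKO and in WT, with no overlap between neighbours, and Ncam1 and L1cam made up 69.2% to 70.6% of the summed FPKM of the 10 genes in cKO libraries and 66.6% to 68.0% in WT libraries. In cKO, Mdga1 came after Dscaml1, Kirrel3 and Dscam and overlapped Ncam2, the next gene below it. In WT, Mdga1 was the fourth, above Dscaml1, Kirrel3 and Dscam, which overlapped one another. Mdga2 and Kirrel were the lowest in each group, and of the remaining neighbours Dscaml1 and Kirrel3 overlapped in cKO and Ncam2 and Mdga2 in WT. The summed level of all 10 genes was 320, 299 and 300 FPKM in cKO and 341, 340 and 288 FPKM in WT, so the groups overlapped in the sum.

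Binding partners and relatives were taken by name, with earlier results of these data known. The counts below stand beside 7.22% of all genes called higher and 8.59% called lower, 15.8% in either direction. Of 6 listed relatives in the superfamily, 1 rose, 2 fell and 3 did not pass, with a median log2 change of 0.12. Nfasc, neurofascin, another L1-family gene of axon initial segments, fell to 17.6 ± 0.867 FPKM in cKO, against 22.7 ± 1.46 FPKM in WT (limma adjusted p = 0.00990). Igsf9, a gene of the Turtle family, was higher in every cKO library (18.2 ± 2.86 FPKM in cKO and 11.7 ± 2.61 FPKM in WT, adjusted p = 0.0240), and Sdk2, a sidekick adhesion gene, was lower (1.8 ± 0.0637 FPKM in cKO and 2.47 ± 0.286 FPKM in WT, adjusted p = 0.0452). The calls of Igsf9 and Sdk2 were lost in 4 and 5 of the 6 fits that left a library out, at most at an adjusted p of 0.0932 (without cKO 1) and 0.158 (without WT 1). Chl1, the other L1-family gene, was at 101 ± 5.90 FPKM in cKO and 102 ± 11.8 FPKM in WT and did not pass.

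Of the 6 MDGA-side partners, none of the neuroligins Nlgn1, Nlgn2 and Nlgn3 passed, and of the neurexins Nrxn3 fell (7.45 ± 0.432 FPKM in cKO and 9.0 ± 0.0751 FPKM in WT, limma adjusted p = 0.0379), a call lost without 5 of the libraries (adjusted p up to 0.151 without cKO 2). The median log2 change of these 6 was −0.06.

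Of 10 NCAM partners and polysialic acid enzymes, 1 rose, 4 fell and 5 did not pass, with a median log2 change of −0.07. St8sia4, 1 of the enzymes that build polysialic acid on NCAM, rose to 6.53 ± 0.233 FPKM in cKO, against 3.83 ± 0.758 FPKM in WT (1.71-fold, limma adjusted p = 0.00339). The other such enzyme, St8sia2, was the more abundant in every library and did not pass (62.3 ± 2.79 FPKM in cKO and 60.5 ± 9.21 FPKM in WT). Among receptor-side partners, Gfra1 and Fgfr1 fell. Gfra1, a GDNF co-receptor that can work with NCAM, was at 1.28 ± 0.108 FPKM in cKO and 3.44 ± 0.499 FPKM in WT (2.68-fold lower, adjusted p = 3.00e-04). The FGF receptor gene Fgfr1 was at 7.68 ± 1.04 FPKM in cKO and 12.4 ± 0.791 FPKM in WT (adjusted p = 0.00197), while Fgfr2 did not pass. Prnp, the prion protein gene, whose product binds NCAM, fell to 58.4 ± 0.827 FPKM in cKO, against 104 ± 5.98 FPKM in WT (adjusted p = 3.07e-05). The growth cone gene Gap43 was also lower (322 ± 23.6 FPKM in cKO and 401 ± 15.4 FPKM in WT, adjusted p = 0.0128), a call lost without cKO 2 (adjusted p = 0.0696).

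Of 10 L1-side partners, 1 rose, 3 fell and 6 did not pass, with a median log2 change of −0.08. The contactins Cntn2 (16.9 ± 0.737 FPKM in cKO and 101 ± 1.55 FPKM in WT, limma adjusted p = 9.54e-09) and Cntn1 (11.9 ± 0.872 FPKM in cKO and 20.1 ± 0.771 FPKM in WT, limma adjusted p = 0.000184), which bind L1-family proteins on axons, fell together with Nrcam. Nrp1, the semaphorin receptor that pairs with L1, fell to 11.0 ± 1.27 FPKM in cKO, against 17.3 ± 1.44 FPKM in WT (adjusted p = 0.00189). Its ligand gene Sema3a was 1.35-fold higher in cKO (adjusted p = 0.0210), a call lost without 2 of the libraries (up to 0.0812 without WT 1). The ankyrins Ank2 and Ank3, which anchor Nrcam and L1cam, did not pass, at 27.9 ± 0.769 FPKM and 26.3 ± 1.27 FPKM in cKO, against 27.9 ± 5.13 FPKM and 27.7 ± 3.42 FPKM in WT.

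Of 9 Kirrel-side scaffolds and adaptors, 1 rose and 8 did not pass, with a median log2 change of −0.06. The scaffold Magi1, whose row also carries a second symbol, rose to 14.0 ± 0.199 FPKM in cKO, against 10.6 ± 0.825 FPKM in WT (limma adjusted p = 0.00714). Of 6 listed Dscam-side partners, 2 rose, 1 fell and 3 did not pass, with a median log2 change of 0.06. The netrin gene Ntn1 fell to 0.632 ± 0.0835 FPKM in cKO, against 1.16 ± 0.0721 FPKM in WT (adjusted p = 0.00630), and its receptor genes split, with Unc5c higher (4.62 ± 0.267 FPKM in cKO and 3.49 ± 0.139 FPKM in WT, adjusted p = 0.0209) and Dcc not passing. Magi3 was also higher (adjusted p = 0.0285). The calls of Unc5c and Magi3 were lost in 3 and 5 of those fits, at most at an adjusted p of 0.0736 (without cKO 3) and 0.106 (without cKO 1).

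**Figure D4:**
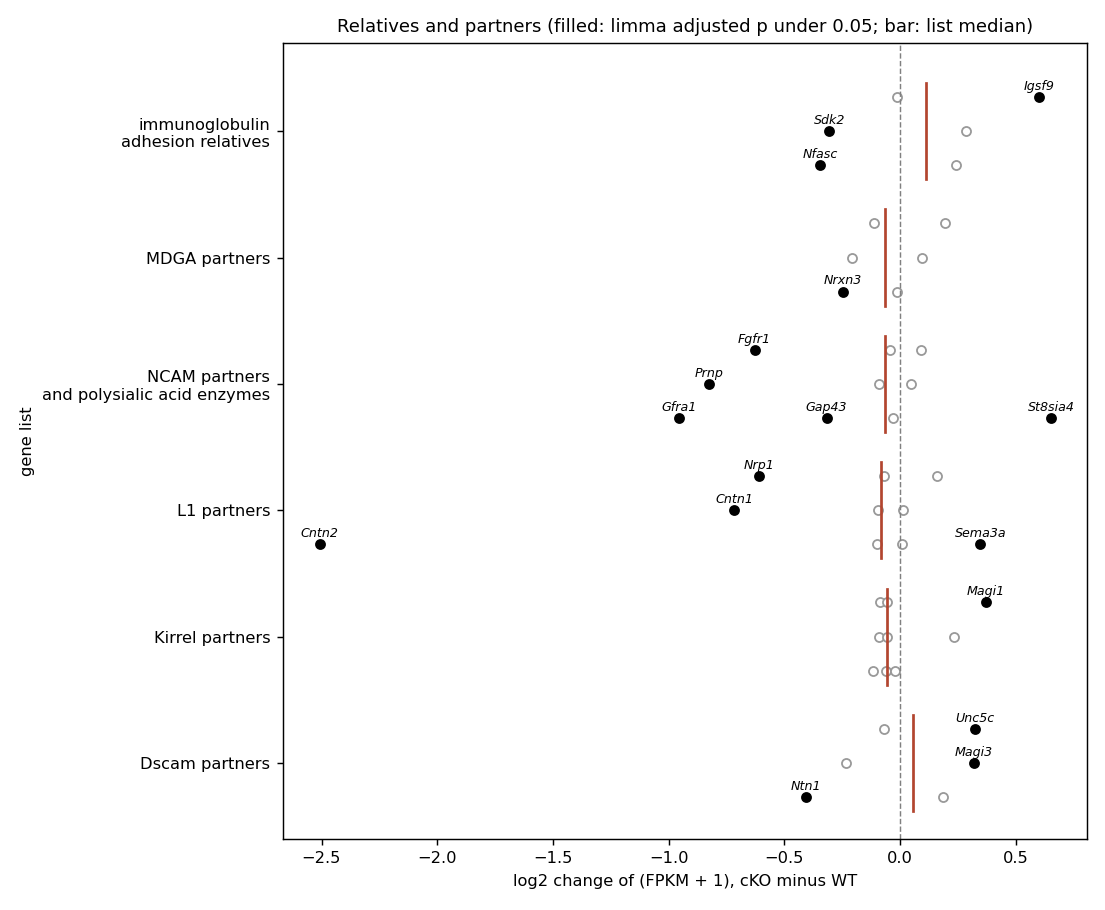
Change of relatives and binding partners as log2(FPKM + 1), cKO minus WT, 1 point per gene and 1 band per list, with the list median as a bar. Filled, named points passed limma's adjusted p of 0.05, and every list median lay between −0.08 and 0.12.

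The genes whose 6 values lay nearest to those of Mdga1, by the root mean square difference of log2(FPKM + 1) after subtraction of the WT mean over 13070 genes, were Ngfr (a neurotrophin receptor, 0.0716), Kcna1 (a potassium channel, 0.0832) and Clstn2 (calsyntenin 2, 0.0846). Clstn2 was at 19.0 ± 1.79 FPKM in cKO and 41.7 ± 2.07 FPKM in WT. The genes nearest to Kirrel by that measure were Fras1 (an extracellular matrix protein, 0.0712), Nxn (nucleoredoxin, 0.0767) and Degs2 (a sphingolipid enzyme, 0.0807). Nxn was at 7.13 ± 0.554 FPKM in cKO and 4.00 ± 0.364 FPKM in WT. With 2 groups of 3 libraries the measure mostly ranks genes by the size of their change.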

How the data were processed

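The deposited table held FPKM values computed by the authors, per the file headers, 1 column for each library. Per the submitters' processing notes, bcl2fastq 1.8.4, STAR 2.5.4b, featureCounts 1.6.1, R 3.4.1 and DESeq2 1.22.1 were used with mm10. The annotation release, strand setting and low-expression filter are not stated in those notes. Of 15703 listed genes, 15655 matched GENCODE M21 by identifier, which gave coordinates and exon lengths, and 139 blank lines were left out. The median log2 ratio to the mean library was nearly the same in all libraries (0.00437 to 0.00448), so the deposited values were already scaled to each other. Library size was chosen so that genes with at most 50 reads and under 3000 exon bases came out as whole reads, which held within 0.1 read for 94.8% to 96.0% of such values. These reads are approximate and served for depth and 1 alternative.

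limma 3.58.1 in R 4.3.3 was fitted to log2(FPKM + 1) of all genes, with genotype as the only term, a mean-variance trend and robust moderation. The fit was also run on simulated data with independent normal noise and no batch or outlying library. That run says nothing of such effects. Other steps used Python 3.11.15 with pandas 2.3.3. The 10 genes, the lists of partners and the cell type markers were chosen with earlier results of these data known, and no list was tested as a set. 1 gene of the marker lists is not reported here. The genes named with results are the 10, the partner genes that passed and the 3 genes with a symbol nearest in pattern to Mdga1 and to Kirrel, with Tcf4 as the check of the labels. Xist, Emx1, Neurod6, Lhx9 and the partner genes named as not passing were chosen after their values were seen. Alternatives were a pseudocount of 0.1, a minimum mean of 1 FPKM, rescaled libraries, moderation without trend, a replicate block, voom on recovered reads and leaving out each library. A term for Xist level and removal of the exon length trend (loess, span 0.3) were added after seeing the data.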

Additional observations from a re-analysis of the deposited data

How the results depend on the processing

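The numbers of genes called higher and lower over the whole table, 1134 and 1349, ranged from 544 to 1572 and from 830 to 1517 when a library was left out. Of the 10 adhesion genes, 3 to 5 were called higher and 2 lower in those fits. The log2 change of Dscaml1 ranged from 0.30 to 0.41 and its call was lost without cKO 1 or cKO 2. That of Kirrel3, 0.30, ranged from 0.21 to 0.42, and the gene was called without WT 1, with the replicate block (log2 change 0.30, adjusted p = 0.0304) and with voom on recovered reads (0.33, adjusted p = 0.0413). The changes of Ncam1 (−0.10 to 0.0099) and L1cam (−0.090 to 0.080) crossed 0, and that of L1cam was −0.027 with the exon length trend removed. The ranges were −1.25 to −1.13 for Mdga1, 0.32 to 0.42 for Mdga2, 0.42 to 0.64 for Ncam2, −0.56 to −0.43 for Nrcam, 0.69 to 0.84 for Kirrel and 0.02 to 0.10 for Dscam. Of 140 refits of the 10 genes (14 alternatives each), 131 kept the direction and the side of the threshold. The cause of the other changes was not tested.

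Deviations of same-numbered libraries from their group means correlated at −0.04, 0.11 and −0.04, and cKO 3 correlated best with WT 1 (0.22). Both cKO 3 and WT 1 held almost no Xist, and Xist was not removed before these correlations. From so few libraries these values cannot show whether replicate numbers paired them. With the replicate block, 1274 genes were called higher and 1541 lower, and of the 10 genes 5 higher and 2 lower. With 3 libraries a group, a gene that did not pass is not shown to be equal.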
